A study of Mus musculus with 24 samples.

Results

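The ADAM genes encode membrane-anchored proteins with a disintegrin and a metalloprotease domain. Every row of the deposited gene tables whose symbol is Adam followed by a number and at most 1 letter was taken, which gave 33 genes of 52323 rows; the secreted Adamts proteases were not included. Of the 33, 20 are known mainly from testis and sperm, 4 (Adam9, Adam10, Adam15 and Adam17) are widely expressed, 5 (Adam8, Adam12, Adam19, Adam28 and Adam33) are known from other tissues, 3 (Adam11, Adam22 and Adam23) are neural and 1 (Adam7) is epididymal. These classes come from general knowledge of the family and not from the tables.

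An ADAM protein is made with a prodomain that convertases of the furin family remove. The widely expressed members then cut the outer parts of other membrane proteins, a reaction called shedding: Adam10 acts on Notch receptors and Adam17 releases tumour necrosis factor. Many testis members, Adam2 among them, lack a working zinc site and serve in sperm as parts of adhesion complexes. Adam1a, Adam1b and Adam2 form the fertilin complexes, and Adam3 is required in mice for sperm to enter the oviduct and to bind the zona pellucida.

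RNA was measured in 24 libraries from testis cells of wild-type NMRI mice, an outbred laboratory strain. In all groups spermatogenesis had been synchronised: WIN18,446, which stops testes from making retinoic acid, was given first and retinoic acid itself later. All mice received 2 mg of 5-ethynyl uridine (EU), a nucleoside that marks newly made RNA, at 24 days after birth, and cells were sorted by ploidy after 3 hours. Each assay, total RNA and EU-captured nascent RNA, has 12 libraries: 3 of spermatogonia (2 animals), 1 of preleptotene cells, 4 of leptotene spermatocytes (3 animals) and 4 of pachytene spermatocytes (2 animals). The animals of the assays differ, and no animal gave both spermatogonia and pachytene cells. That comparison therefore sets different animals against each other, which are linked only through animals that also gave leptotene cells. The study's question, by its title, is how transcription and RNA stability change as meiosis begins.

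Values are FPKM, fragment counts scaled to gene length and to the fragments mapped in the library, so levels of different genes can be set side by side. The spacing of low values implied a depth, in 1e6 fragments, of about 7.07 to 16.0 per total and 5.13 to 10.3 per nascent library. Spike-in RNA held 2.49 to 8.19% of summed FPKM in total and 5.01 to 76.5% in nascent libraries. The total RNA library labelled leptotene 2 correlated with pachytene libraries at Spearman 0.874 to 0.904 and with the other leptotene libraries at 0.528 to 0.569, and the nascent library of that label also stood nearer to pachytene (0.754 to 0.860 against 0.594 to 0.625). It is called the library labelled leptotene 2, and results that use leptotene cells are given with and without it. In the spermatogonia, summed markers of Leydig cells reached 173 to 423 FPKM and those of peritubular and vascular cells 198 to 452 FPKM in total RNA, against 4.48 to 7.76 and 0.579 to 1.28 FPKM in pachytene libraries, while spermatogonial markers summed to 131 to 167 FPKM. The Leydig sum in pachytene libraries was mostly Star, at 4.10 to 7.22 FPKM there and 3.51 to 4.58 in spermatogonia, unlike the other Leydig markers. Insl3 alone held 76.5 to 286 FPKM in spermatogonia. The part of the somatic markers in the comparisons with spermatogonia was not tested. Spermatid markers summed to 6.77 to 11.1 FPKM in pachytene total RNA, with Tnp1 and Catsper3 at 0.

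All 33 symbols were found in GENCODE M21, an annotation of the mm10 genome build that the submitters' notes name. Adam18, Adam3, Adam5, Adam32 and Adam9 lie in that order on the minus strand of chromosome 8 between 24602246 and 25016927. Only 806 bases separate Adam32, a testis gene, from Adam9, a widely expressed one. Adam1a and Adam1b lie together on the minus strand of chromosome 5 (121518576 to 121545482 and 121500098 to 121503435), and 32.4% of the 50-base words of Adam1b's transcript also occur in Adam1a. Adam1a overlaps its neighbour Mapkapk5 on the same strand in the annotation, and 77.8% of Adam1a's words also occur in other genes' transcripts, so the values of both genes are uncertain. Of the 20 testis members, 14 have a single coding exon.

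The promoter table holds 17 members. The windows of 5 are shown: Adam1b and Adam1a, which rose in pachytene cells below, and Adam10, Adam17 and Adam15, which fell. Adam2, Adam3, Adam5, Adam18, Adam30 and Adam32, which also rose, and Adam9, which also fell, are not among the 17. The windows shown therefore do not stand for all risen or fallen members. Each runs from 250 bases before to 50 bases after the annotated start, 5′ to 3′ on the gene's strand, from RefSeq on GRCm38.p6. Capitals mark matches, on either strand, to AACNGNC, the core recognised by MYB factors such as the pachytene regulator MYBL1, or to TGACG, the core of the cyclic AMP response element.
Adam1b (chr5:121503386-121503685, minus strand): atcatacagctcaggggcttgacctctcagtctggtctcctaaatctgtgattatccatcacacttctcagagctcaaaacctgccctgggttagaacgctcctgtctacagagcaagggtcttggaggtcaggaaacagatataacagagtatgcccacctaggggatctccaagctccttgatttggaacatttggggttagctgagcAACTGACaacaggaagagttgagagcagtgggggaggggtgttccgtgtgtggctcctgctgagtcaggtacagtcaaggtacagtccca
Adam1a (chr5:121521646-121521945, minus strand): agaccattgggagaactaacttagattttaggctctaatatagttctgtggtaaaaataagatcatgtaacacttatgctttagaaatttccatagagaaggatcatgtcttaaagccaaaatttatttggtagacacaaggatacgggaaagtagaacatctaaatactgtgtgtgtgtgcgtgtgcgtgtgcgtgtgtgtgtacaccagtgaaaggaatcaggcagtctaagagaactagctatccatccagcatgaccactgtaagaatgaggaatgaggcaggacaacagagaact
Adam10 (chr9:70678732-70679031, plus strand): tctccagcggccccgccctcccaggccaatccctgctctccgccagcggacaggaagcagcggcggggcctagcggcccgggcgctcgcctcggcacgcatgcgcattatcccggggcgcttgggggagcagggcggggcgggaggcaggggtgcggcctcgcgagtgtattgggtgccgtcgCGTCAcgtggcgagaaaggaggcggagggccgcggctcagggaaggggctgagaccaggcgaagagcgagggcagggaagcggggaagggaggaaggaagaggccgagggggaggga
Adam17 (chr12:21373583-21373882, minus strand): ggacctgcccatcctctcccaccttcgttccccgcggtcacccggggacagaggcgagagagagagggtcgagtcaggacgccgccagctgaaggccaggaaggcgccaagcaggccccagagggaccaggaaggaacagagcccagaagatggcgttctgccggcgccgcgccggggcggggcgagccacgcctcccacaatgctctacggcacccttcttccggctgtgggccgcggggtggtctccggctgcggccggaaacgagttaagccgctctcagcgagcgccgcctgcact
Adam15 (chr3:89349979-89350278, minus strand): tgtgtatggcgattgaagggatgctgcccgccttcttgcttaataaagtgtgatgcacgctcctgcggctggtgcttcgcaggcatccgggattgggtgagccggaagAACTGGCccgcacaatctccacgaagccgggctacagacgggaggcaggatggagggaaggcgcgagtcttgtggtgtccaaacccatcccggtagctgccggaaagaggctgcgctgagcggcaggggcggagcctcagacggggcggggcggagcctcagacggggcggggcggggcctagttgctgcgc

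The windows differ in base composition. Those of Adam10, Adam17 and Adam15 hold 32, 30 and 25 CG dinucleotides, and those of Adam1b and Adam1a hold 2 and 4, where the median of 32851 promoter windows was 7. AACNGNC occurs once in the Adam1b window and once in that of Adam15, and in 32.8% of all windows. TGACG occurs once, in the Adam10 window, and in 20.8% of all windows. The full palindrome TGACGTCA is in none of the 5 and in 1.79% of all windows. These are matches of letters and say nothing of binding. The CG counts belong to these 5 windows, and most risen members have no window here, so no trait of risen or fallen members follows.

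The share of the family's RNA held by testis members differed between the stages. In total RNA of pachytene cells the 20 testis members summed to 234 to 298 FPKM, 95.5 to 96.8% of the family's summed FPKM, and Adam9, Adam10, Adam15 and Adam17 summed to 4.41 to 6.89 FPKM. In spermatogonia the testis members held 7.90 to 34.3% and the 4 widely expressed genes 47.6 to 71.0%. Nascent RNA gave testis shares of 90.8 to 96.7% in pachytene cells and 3.30 to 6.54% in spermatogonia. The library labelled leptotene 2 had testis shares of 95.5% in total and 83.3% in nascent RNA, against 15.5 to 30.1% and 4.85 to 20.1% in the other leptotene libraries.

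**Figure D1:**
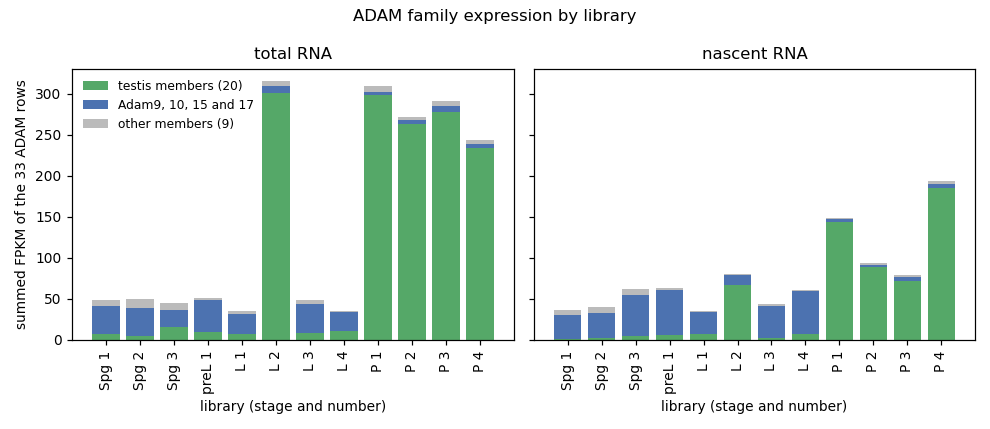
Summed FPKM of the 33 ADAM rows (y axis) in each library (x axis: Spg, spermatogonia; preL, preleptotene; L, leptotene; P, pachytene, each with its number), total RNA left and nascent RNA right, with bars split into 20 testis members, 4 widely expressed members and 9 others. Testis members fill 95.5 to 96.8% of the bar in pachytene total RNA, and L 2 has a bar like those of pachytene cells.

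Of the 33 members, 15 passed the level filter in total RNA (at least 1 FPKM in at least 2 libraries) and 17 in nascent RNA. In nascent RNA Adam2, Adam3, Adam5, Adam18, Adam30 and Adam32 reached 1 FPKM only in pachytene libraries and leptotene 2. Adam18 did so in total RNA too. Their rises there are thus not independent of having passed the filter. The other testis members tested in total RNA also reached 1 FPKM in spermatogonia. Adam3, Adam30 and Adam32 did so in few libraries outside pachytene and leptotene 2. Adam12 in both assays and Adam23 in nascent RNA passed through spermatogonia libraries alone, so their falls are not independent of the filter either. Adam9 in total RNA and Adam15 in both assays reached 1 FPKM in no pachytene library. Their falls to pachytene cells in those assays are likewise not independent of the filter. Tests used limma on log2(FPKM + 1) with libraries of the same animal and stage averaged, adjusted by Benjamini-Hochberg over all genes tested. Changes are differences on that scale, which understates the change of low genes, with ± standing for the standard error.

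From spermatogonia to pachytene cells in total RNA, 8 members rose and 5 fell of 15 tested. Over all 19202 genes 23.1% rose and 29.7% fell, and the median change was -0.14. The members that rose were the 8 testis members tested, Adam1a, Adam1b, Adam2, Adam3, Adam5, Adam18, Adam30 and Adam32, with a median of 3.67. Those that fell were all 4 widely expressed members, with a median of -1.80, and Adam12. In nascent RNA the same 8 rose and 6 of 17 fell, Adam23 being added to those 5, while 15.6% and 27.9% of 16375 genes rose and fell and the median was -0.39. Adjusted p of the 8 rises ran from 0.00121 to 0.00638 in total and from 0.000324 to 0.00943 in nascent RNA. With the animal as a replicate block 8 rose in both assays and 2 fell in each, Adam10 and Adam15, where 14.4% and 17.2% of genes rose and fell in total and 13.7% and 18.1% in nascent RNA. Without leptotene 2, which enters the shared estimate of spread, 8 rose and 6 fell in total RNA (26.1% and 31.1% of genes), Adam19 being added, and 8 rose and 6 fell in nascent RNA (15.9% and 28.7%). Without leptotene replicate 1 the total RNA counts were 4 and 2 (9.97% and 20.6% of genes). Adam4, the ninth testis member tested in nascent RNA, was not called there (-0.09 ± 0.34, adjusted p = 0.853). Scaled by the spike-ins, 6537 genes rose and 4607 fell in total RNA, against 4442 and 5701 as deposited. None of the nascent genes passed after spike-in scaling, and all 14 nascent changes of members named here kept their sign under it.

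**Figure D2:**
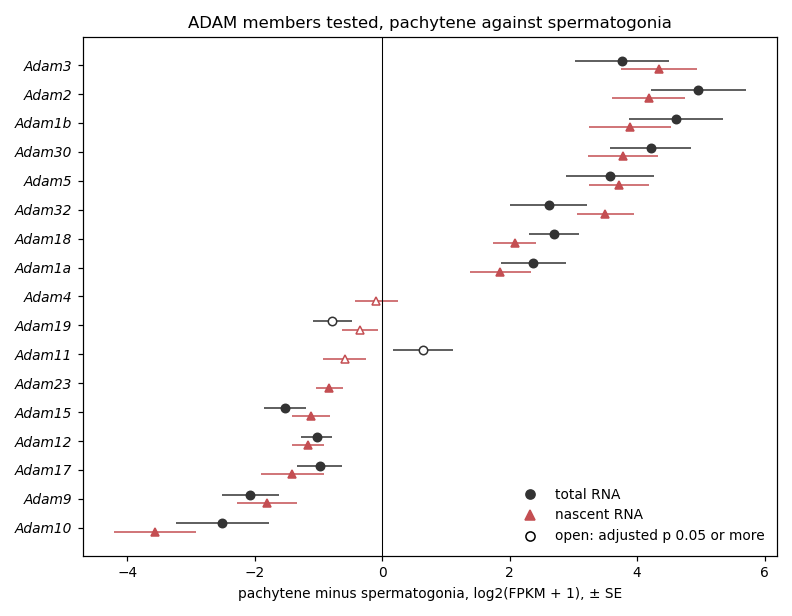
Change from spermatogonia to pachytene cells in log2(FPKM + 1) (x axis, ± SE) of each member tested (y axis), in total RNA (circles) and nascent RNA (triangles), with filled symbols for adjusted p under 0.05. The 8 testis members that rose lie between 1.85 and 4.96, Adam4, tested in nascent RNA alone, lies at -0.09, and Adam9, Adam10, Adam12, Adam15 and Adam17 lie below 0 in both assays.

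Among the fertilin genes, Adam2, the beta subunit, had the highest total RNA level of the family in 3 of 4 pachytene libraries, and Adam1b had it in the other. The pachytene libraries held 88.3, 77.7, 73.6 and 81.8 FPKM of Adam2 in total RNA, and the spermatogonia 1.10, 0.597 and 2.74. Its preleptotene library held 0.543 FPKM, leptotene libraries 1, 3 and 4 held 0.797, 1.51 and 1.03, and the library labelled leptotene 2 held 65.3. Pachytene values were thus above all others, and only leptotene 2 came near them.

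Adam2 rose by 4.96 ± 0.74 from spermatogonia to pachytene cells (adjusted p = 0.00129). Its mean over animals went from 1.79 ± 1.34 (SD, n = 2) to 80.3 ± 0.871 FPKM (SD, n = 2). Nascent Adam2 was listed at 0.177, 0 and 0 FPKM in spermatogonia and at 17.1, 20.6, 8.25 and 33.9 in pachytene cells, a rise of 4.18 ± 0.57 (adjusted p = 0.00041). The lowest of those pachytene values belongs to the library with 76.5% spike-in and the highest to that with 13.1%; the part of the spike-in share in this spread was not tested.

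Adam1b, a fertilin alpha gene, was at 82.3, 53.1, 88.5 and 54.2 FPKM in pachytene total RNA and at 1.46, 0.623 and 2.94 in spermatogonia. Its nascent values were 35.9, 16.8, 22.2 and 44.7 FPKM against 0.214, 0.524 and 1.80. In both assays the groups did not overlap, and the rises were 4.61 ± 0.74 in total and 3.89 ± 0.64 in nascent RNA.

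Adam1a, the other alpha gene, was lower, at 13.3, 9.11, 14.2 and 8.24 FPKM in pachytene total RNA against 1.22, 1.06 and 1.48 in spermatogonia, a rise of 2.37 ± 0.51. Unlike Adam2, Adam1a was already listed with nascent RNA in leptotene libraries 1, 3 and 4, at 2.20, 0.670 and 2.02 FPKM, and in the preleptotene library, at 1.94. Adam1b was too, at 2.72, 1.01 and 2.14 FPKM in those leptotene libraries and 2.12 in the preleptotene one. Nascent Adam1a was 5.62, 3.28, 4.08 and 8.69 FPKM in pachytene cells and 0.269, 0.404 and 1.15 in spermatogonia, and it rose by 1.85 ± 0.48. Adam1a and Adam1b share sequence as stated, so how their reads were divided is uncertain.

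The next group is the row of 4 testis genes on chromosome 8. Adam3 was at 11.8, 33.5, 28.5 and 19.9 FPKM in pachytene total RNA and at 0.368, 0.0976 and 1.32 in spermatogonia. Its nascent RNA was listed at 0 in all 3 spermatogonia libraries and at 33.6, 9.90, 13.3 and 30.4 FPKM in pachytene cells. The rises were 3.76 ± 0.74 in total RNA and 4.34 ± 0.60 in nascent RNA. The library labelled leptotene 2 held 43.7 FPKM of Adam3 in total RNA, more than any pachytene library.

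Adam5, an Adam3-like sperm membrane gene, was at 43.5, 41.8, 26.7 and 22.0 FPKM in pachytene total RNA and at 1.45, 0.443 and 3.11 in spermatogonia. Nascent Adam5 was listed at 0 in all 3 spermatogonia libraries and held 16.1, 12.02, 8.81 and 12.3 FPKM in pachytene cells. It rose by 3.58 ± 0.69 and 3.71 ± 0.47. Leptotene 2, at 67.6 FPKM in total RNA, again exceeded the pachytene libraries, while its nascent value of 5.96 was below them.

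Adam18 and Adam32, both sperm surface genes, were lower. Adam18 was at 10.6, 5.13, 4.13 and 4.76 FPKM in pachytene total RNA and at most 0.0615 in the spermatogonia, preleptotene and other leptotene libraries apart from leptotene 2 (3.36). It rose by 2.7 ± 0.39 in total and 2.08 ± 0.34 in nascent RNA. Adam32 was at 9.71, 13.5, 4.60 and 8.67 FPKM in pachytene total RNA against 0.121, 0 and 1.34 in spermatogonia, and it rose by 2.61 ± 0.60 and 3.5 ± 0.45.

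Adam9, the widely expressed neighbour of Adam32, moved the other way. It was at 7.28, 6.99 and 5.07 FPKM in spermatogonia total RNA and at 0.544, 0.577, 0.991 and 0.626 in pachytene cells, with no overlap. It fell by 2.07 ± 0.45 on the log2 scale in total RNA (adjusted p = 0.00483) and by 1.80 ± 0.47 in nascent RNA. With the animal as a replicate block the call was lost in both assays (adjusted p = 0.0777 and 0.416).

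Adam30, like Adam1b, has a single coding exon, and it lies on chromosome 3. It was at 37.6, 28.6, 37.1 and 33.1 FPKM in pachytene total RNA and at 0.794, 0.348 and 1.27 in spermatogonia. Its nascent values were 18.2, 11.7, 7.80 and 29.8 FPKM against 0.0837, 0.142 and 0.234. The rises were 4.21 ± 0.64 and 3.78 ± 0.55.

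**Figure D3:**
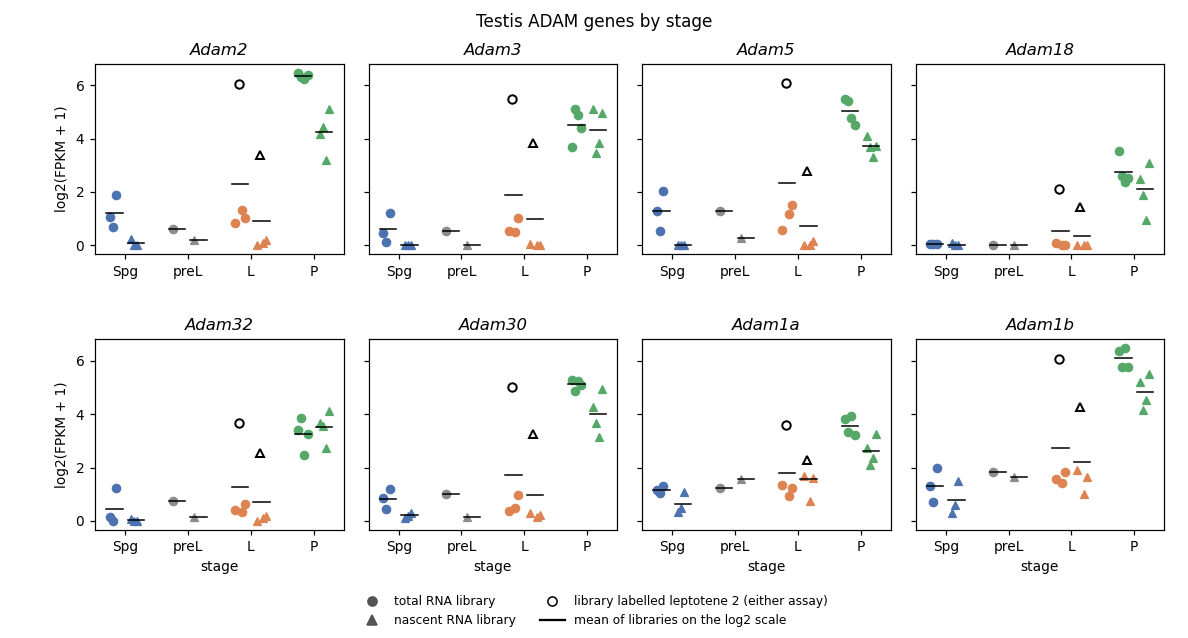
Level of 8 testis ADAM genes in log2(FPKM + 1) (y axis) by stage (x axis: Spg, spermatogonia; preL, preleptotene; L, leptotene; P, pachytene), 1 symbol per library, circles for total RNA, triangles for nascent RNA, open symbols for the library labelled leptotene 2 and lines for the mean of the libraries. In all 8 panels the pachytene symbols lie above those of spermatogonia, and the open symbols lie above the other leptotene ones. The panels show the 8 members called as risen, so the order of pachytene and spermatogonia is no separate result.

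The other 12 testis members, each with a single coding exon, stayed below the filter in total RNA. They include Adam24 and Adam25, Adam20 and Adam39, which lie in a row on chromosome 8, and Adam26a, Adam26b, Adam29 and Adam34 on the same chromosome, besides Adam4, Adam6a, Adam6b and Adam21 on chromosome 12. Adam26b, Adam29 and Adam34, with the epididymal Adam7, were listed at 0 in all 12 total RNA libraries. In nascent RNA 11 members were listed at 0 in all libraries. The highest total RNA value among the 12 was 0.909 FPKM, of Adam4, which was at 0.398 to 0.537 in spermatogonia, below its values of 0.583 to 0.909 in all other libraries. Adam4 overlaps Cox16 on the same strand in the annotation, and 17.4% of its 50-base words occur in other genes' transcripts. Its values in both assays are therefore uncertain. Without Adam4 the highest was 0.381 FPKM, of Adam21. At the implied depths 1 FPKM over a gene of 1500 bases is about 10.6 to 24.0 fragments in a total and 7.70 to 15.4 in a nascent library, so levels far below that were not measurable here, and a listed 0 does not show that a gene is silent. Adam25, Adam20, Adam26a, Adam26b and Adam39 share 34.2 to 36.7% of their 50-base words with other genes' transcripts, so their low values are also uncertain. Of the 14 single-coding-exon testis members, Adam1b and Adam30 were the 2 tested in total RNA, and the other 6 testis members were all tested.

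Among the widely expressed members, Adam10, the Notch sheddase, had the largest change on the log2(FPKM + 1) scale in both assays. It was at 17.4, 18.4 and 4.79 FPKM in spermatogonia total RNA, at 21.2 in the preleptotene library, and at 8.00, 21.3 and 5.00 in leptotene libraries 1, 3 and 4. Pachytene libraries held 0.315, 0.582, 2.44 and 0.576 FPKM. All pachytene values were below all others, though spermatogonia replicate 3 and leptotene replicate 4 were near the lower end of the earlier stages. Adam10 fell by 2.51 ± 0.73 on the log2 scale (adjusted p = 0.0178).

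Nascent Adam10 was at 19.1, 20.1 and 32.8 FPKM in spermatogonia and at 0.628, 0.620, 2.51 and 1.71 in pachytene cells, and it fell by 3.56 ± 0.64 (adjusted p = 0.00127). In spermatogonia its difference of total minus nascent log2 values was -1.34, at percentile 1.5 of 15914 genes, whose median was 0.29. FPKM sets each library to its own sum, and the assays were depleted of ribosomal RNA differently, so this is a rank within the 2 tables and not a ratio of molecules.

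Adam17, the tumour necrosis factor sheddase, had the smallest change of the 4 in total RNA on that scale. It was at 6.93, 7.44 and 9.02 FPKM in spermatogonia total RNA and at 3.55, 3.63, 3.26 and 3.89 in pachytene cells, with no overlap, and all 12 libraries held at least 3.26 FPKM. It fell by 0.98 ± 0.35 on the log2 scale in total RNA (adjusted p = 0.0394) and by 1.41 ± 0.49 in nascent RNA (adjusted p = 0.0383). These calls are close to the threshold: after scaling to an equal median the falls were 0.72 and 0.85 with adjusted p = 0.125 and 0.0729, and from leptotene to pachytene the sign turned to a change of 0.01 in total RNA under spike-in scaling and of 0.26 in the 5S-corrected nascent table.

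Adam15 was low, a level at which this scale understates change. It was at 1.71, 2.12 and 2.22 FPKM in spermatogonia and 0, 0.0464, 0.199 and 0.0114 in pachytene total RNA, and its nascent RNA was listed at 0 in all 4 pachytene libraries. It fell by 1.53 ± 0.33 in total and by 1.12 ± 0.30 in nascent RNA on the log2 scale.

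**Figure D4:**
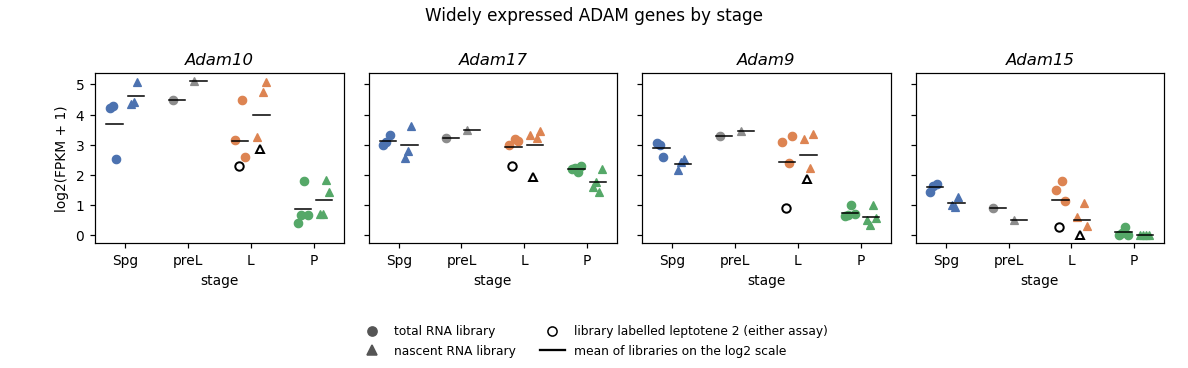
Level of the 4 widely expressed ADAM genes in log2(FPKM + 1) (y axis) by stage (x axis: Spg, spermatogonia; preL, preleptotene; L, leptotene; P, pachytene), 1 symbol per library, circles for total RNA, triangles for nascent RNA, open symbols for the library labelled leptotene 2 and lines for the mean of the libraries. Pachytene total RNA libraries lie below the spermatogonia in all 4 panels, by 0.98 for Adam17 and 2.51 for Adam10 in the fitted means.

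From leptotene to pachytene cells in total RNA the 8 testis members rose and Adam9, Adam10 and Adam15 fell, where 22.4% and 17.7% of all genes rose and fell. Without the library labelled leptotene 2 the counts were 8 and 4, Adam17 being added (fall of 0.92 ± 0.21, adjusted p = 0.00923), where 28.9% and 24.6% of genes rose and fell. The rise of Adam2 was 4.41 ± 0.68 with that library and 5.28 ± 0.34 without it. In nascent RNA 7 rose and Adam9, Adam10 and Adam17 fell of 17 tested, against 15.8% and 15.4% of genes. Of the 9 testis members tested, Adam4 (-0.23 ± 0.31, adjusted p = 0.604) and Adam1a (1.17 ± 0.44, adjusted p = 0.0651) missed the threshold. Adam1a passed without leptotene 2 (1.27 ± 0.39, adjusted p = 0.0313), where 9 rose and 3 fell, Adam19 being the ninth, against 17.6% and 21.9% of genes. Without leptotene replicate 1 the counts were 0 and 0 in total RNA (0.0417% and 0.00521% of genes) and 1 and 1 in nascent RNA (5.78% and 3.01%). In those fits leptotene 2 alone stood for leptotene cells of animal IND1 or IND5, and its part in the lost calls was not tested.

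A comparison within an animal was possible for this step. In animal IND4, total RNA of Adam2 differed by 5.01 and that of Adam3 by 4.23 between pachytene and leptotene libraries, with no error since there is 1 animal. Adam10 differed by -3.82 and Adam17 by -0.95 there. In animal IND8 the nascent differences were 4.68 for Adam2, 4.21 for Adam3, -3.69 for Adam10 and -1.26 for Adam17. The signs are those of the comparisons across animals for all 4 genes. Those comparisons include these same animals, so the shared signs are no independent check.

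From spermatogonia to leptotene cells none of the testis or widely expressed members changed by the test in either assay. In total RNA 0 members rose and 2 fell, Adam12 (fall of 1.17 ± 0.22, adjusted p = 0.012) and Adam19 (fall of 1.07 ± 0.28, adjusted p = 0.0428), where 0.286% of genes rose and 9.52% fell. No member rose at an unadjusted p under 0.05 either. Without leptotene 2 the same 2 members fell, where 0.781% and 11.3% of genes rose and fell. In nascent RNA 0 rose and Adam12 fell (by 1.17 ± 0.23, adjusted p = 0.0066), against 0.696% and 9.90% of genes, and without leptotene 2 Adam11, Adam12 and Adam19 fell, against 0.885% and 10.2%. For Adam2 the change in total RNA was 0.54 (95% interval -1.0 to 2.09) with leptotene 2 and -0.32 (-1.11 to 0.47) without it, so the sign of that estimate rests on the 1 library. The intervals do not show that levels were equal.

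Adam12 and Adam19, meltrins known from muscle, bone and heart development, fell beside the markers of somatic testis cells. Adam12 was at 1.80, 2.93 and 1.34 FPKM in spermatogonia total RNA and at 0.146 to 0.361 in the leptotene libraries, without overlap, and spermatogonia were the only stage in which it reached the filter's level. Adam19 was at 2.80, 4.24 and 2.11 FPKM in spermatogonia and at 0.543 to 1.40 in leptotene libraries, and its call was lost when leptotene replicate 1, 3 or 4 or spermatogonia replicate 2 was left out and with the animal as a replicate block. Of the markers tested in the same comparison, 8 of 9 Sertoli, 5 of 6 Leydig and 6 of 6 peritubular and vascular ones fell. The summed Sertoli markers were 132 to 185 FPKM in spermatogonia and 8.26 to 28.5 in leptotene libraries, and those of Leydig cells, Insl3, Cyp17a1 and Hsd3b1 among them, were 173 to 423 and 2.0 to 20.1. Their part in the falls of Adam12 and Adam19 was not tested. In bulk libraries fewer cells of a type and less RNA per cell cannot be told apart. The neural member Adam23 fell from spermatogonia to pachytene cells in nascent RNA (by 0.83 ± 0.21, adjusted p = 0.00839), from 0.655 to 1.13 FPKM to at most 0.0748, beside the same markers, and it too reached 1 FPKM in spermatogonia alone.

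The single preleptotene library of each assay resembled the earlier stages. Its family sum was 50.8 FPKM in total RNA, with a testis share of 17.6%, and 62.6 FPKM in nascent RNA, with a testis share of 9.92%. Nascent Adam10 was at 33.7 FPKM there, the highest value of the 12 nascent libraries, though leptotene replicate 4 and spermatogonia replicate 3 were at 32.8. With 1 library this is a description.

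Testis members were not all absent from total RNA of the early stages. In the 3 spermatogonia libraries the 8 members had median levels of 1.83, 0.82 and 4.93% of their pachytene mean in total RNA and 0.606, 0 and 0% in nascent RNA. For markers of pachytene cells, 7 in total RNA had medians of 4.02, 0.908 and 3.29% and 6 in nascent RNA had 1.92, 0.83 and 2.04%. Spag6, of the same marker list, was left out in both assays. Its total RNA was at most 0.028 FPKM in pachytene libraries and 0.066 in spermatogonia, so it did not mark pachytene cells here. Ccna1, with a pachytene mean over animals of 4.81 FPKM in nascent RNA, was left out in that assay. In the library labelled leptotene 2 the members had a median of 96.9% and the markers 80.7% in total RNA, and 49.6% and 66.5% in nascent RNA. Whether pachytene RNA in the early libraries has a part in these low levels was not tested.

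The change between stages was compared between the assays as an interaction over 15914 genes, 15 members among them. No member was called by limma in any of the 3 comparisons, and none had an unadjusted p under 0.05; the lowest adjusted p was 0.545. Over all genes 0% were called for leptotene minus spermatogonia, 0.00628% higher and 0.0189% lower in total RNA for pachytene minus leptotene, and 0% and 0.0126% for pachytene minus spermatogonia. Without leptotene 2 in both assays these were 0%, then 1.29% and 0.258%, then 0.572% and 0.302%. No member was called there either, though Adam1a, Adam2 and Adam18 had an unadjusted p under 0.05 for pachytene minus leptotene (lowest adjusted p 0.264). A difference between the assays in how the members change was therefore not detectable with these animals. In the authors' 5S-corrected table, where each nascent library was multiplied by 1 constant, Adam2 averaged 60.5 ± 42.9 (SD, n = 2 animals) in pachytene cells and 0.173 ± 0.245 in spermatogonia, and the same 8 members rose and 5 fell (18.1% and 22.5% of genes).

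Genes that act with the ADAM proteins were counted in lists chosen with earlier results of these data known. Of 20 genes for the folding and maturation of sperm ADAM proteins, 17 were tested in total RNA, and 6 rose and 5 fell from spermatogonia to pachytene cells, with a median of 0.04, where 23.1% and 29.7% of all genes rose and fell. The risers were Clgn, Canx, Cmtm2a, Cmtm2b, Pcsk4 and Rnase10, and Calr3, Ly6k, Pgap1, Ace and Tssk6 fell. Rnase10 reached 1 FPKM in pachytene total RNA alone, so its rise is not independent of the level filter. Calr3 reached that level in leptotene libraries only. Ly6k fell only on the log2 scale: its pachytene libraries ran from 0.002 to 85.2 FPKM, and its mean over animals was 35.6 ± 9.94 FPKM (SD, n = 2) there against 25.4 ± 6.82 in spermatogonia. For Canx the groups overlapped in total RNA, at 6.06 to 43.5 FPKM in spermatogonia and 14.9 to 73.1 in pachytene libraries. Clgn, the chaperone calmegin that sperm fertilin needs for its assembly, rose by 2.92 ± 0.55 in total and 4.85 ± 0.68 in nascent RNA. Cmtm2a and Cmtm2b, membrane genes needed for Adam3 on mouse sperm, rose by 4.76 ± 0.71 and 4.39 ± 0.75 in total RNA. Cmtm2a reached 149 to 218 FPKM in pachytene total RNA, from 1.99 to 9.28 in spermatogonia. Calr3, a calreticulin required for Adam3 maturation, fell by 0.76 ± 0.23 (adjusted p = 0.0217) and was at 0.0230 to 0.156 FPKM in pachytene and 0.796 to 0.913 in spermatogonia total RNA. Tex101, a sperm ADAM cofactor, was high in all stages, at 38.3 to 184 FPKM in total RNA, where its groups overlapped.

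Of 5 convertases, 4 were tested. Pcsk4, the convertase of sperm ADAM proteins, rose by 3.13 ± 0.60 in total and 3.0 ± 0.49 in nascent RNA, and Furin, the general one, fell by 1.61 ± 0.40 and 2.83 ± 0.49, as did Pcsk5 (by 1.3 ± 0.21 and 1.07 ± 0.21). Pcsk5 reached 1 FPKM in spermatogonia alone in both assays, so its falls are not independent of the level filter. Furin was at 1.39 to 6.61 FPKM in spermatogonia and at most 0.213 in pachytene total RNA, and Pcsk4, which is also in the list before, was at 1.175 to 1.75 and 12.2 to 35.4.

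Among 9 genes that carry or activate Adam10 and Adam17, 1 rose and 4 fell of 7 tested in total RNA, with a median of -1.66, and 0 rose and 5 fell in nascent RNA. Tspan14 and Tspan17, tetraspanins that escort Adam10, fell by 3.51 ± 0.63 and 2.14 ± 0.29 in total RNA. Rhbdf2 and Rhbdf1, the inactive rhomboids that carry Adam17 to the cell surface, fell by 1.76 ± 0.30 and 1.66 ± 0.28. The riser was Frmd8, which stabilises those rhomboids (0.90 ± 0.33, adjusted p = 0.0462). Of the 5 inhibitors, 0 rose and 4 fell in total RNA, Timp1, Timp2, Timp3 and Reck. Timp2 fell by 4.99 ± 0.49, and Timp3, an inhibitor of Adam17, fell by 4.36 ± 0.38. Timp2 and Timp3 had already fallen at the step from spermatogonia to leptotene cells (by 3.58 ± 0.45 and 3.27 ± 0.35), beside the somatic markers, whose part was not tested. Of 24 known substrates, 21 were tested, and 1 rose and 14 fell, with a median of -1.60. App fell by 3.38 ± 0.79, the stem cell factor receptor Kit fell by 2.99 ± 0.67 and Notch2 fell by 2.67 ± 0.39, while Tgfa, a growth factor released by Adam17, rose by 1.51 ± 0.46. Of all genes, 23.1% rose and 29.7% fell in total RNA, and 2562 rose and 4569 fell of 16375 in nascent RNA. Against these, the counts above are of genes picked for their link to the family, and nothing particular to the lists was tested. Some listed genes, such as Timp1, Tnf and Cd44 in total RNA, reached 1 FPKM in spermatogonia alone. The counts are therefore not independent of the level filter.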

How the data were processed

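The submitters' processing notes name STAR 2.5.2a, StringTie and the build mm10 for what the authors did with the reads. The annotation, the StringTie version and the use of strand are not given in the sources used here, so overlapping genes are uncertain. The deposited total and nascent tables hold FPKM per gene. The third deposited table holds a signal in which the authors multiplied each of 9 nascent libraries by 1 constant. Every column was mapped to a sample by its name, and 0 were left unmapped. Per the labels, ribosomal RNA was depleted from the total libraries and not from the nascent ones.

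A gene was tested where 2 or more libraries of its assay had at least 1 FPKM. Tests used limma 3.58.1 (R 4.3.3, variance trend) on log2(FPKM + 1), after averaging, on the log2 scale, any libraries that shared an animal and a stage. All stages were fitted together, and adjusted p under 0.05 by Benjamini-Hochberg over all genes was called. The fit was checked on simulated data, where 94% of genes changed by 2 log2 units and 100% of those changed by 3 were recovered for total RNA, pachytene minus spermatogonia, among 19202 genes. Only genes with a mean log2(FPKM + 1) above 3 were changed there, the spreads were set in advance and no library resembled leptotene 2. These rates therefore check the code and do not give the chance of detecting a change in the members. Depth was read from the spacing of low values, of which 30.9 to 35.7% (total) and 35.1 to 41.9% (nascent) lay within 0.05 of whole reads, too few to recover counts. Library values are given for members with a stage mean of at least 5 FPKM, and every called member is named. From the lists of related genes, up to 4 called genes with the largest change are named by rule; Calr3, Tex101, Frmd8, Tgfa and the other called genes of short counts were added after their values were seen. The members and lists were chosen with earlier results of these data known.

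Replicate numbers in the titles do not mark animals; the labels give the animal, and spermatogonia and leptotene share 2 animals and leptotene and pachytene 1, so the animal was fitted as a block as an alternative. P-values rest on 2 or 3 animals per stage.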

Additional observations from a re-analysis of the deposited data

Results flagged for a closer look

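For the 11 members with a stage mean of at least 5 FPKM, gaps were measured on log2(FPKM + 1). In 14 of 44 groups of 4 libraries, 1 library stood far from the other 3, by a gap, relative to the range, above Dixon's critical value. For independent groups of normally distributed values chance gives this in about 1 in 20. The groups here share the same libraries, so the 14 are not independent and cannot be set against that rate. In all 14 the far library was the one labelled leptotene 2, and no pachytene group had such a library on that scale. On FPKM itself 17 groups passed, 15 of them through leptotene 2. The other 2 were pachytene groups of total RNA, Adam10 in replicate 3 (2.44 FPKM against 0.315 to 0.582) and Adam18 in replicate 1 (10.6 against 4.13 to 5.13). Adam5 in total RNA (67.6 against 0.49 to 1.88) and Adam1b in nascent RNA (18.3 against 1.01 to 2.72) passed only on FPKM, and Adam17 in nascent RNA only on the log2 scale. In total RNA that library held 11.1 FPKM of Adam1a (the others 0.911 to 1.55), 65.8 of Adam1b (1.65 to 2.60), 65.3 of Adam2 (0.797 to 1.51), 43.7 of Adam3 (0.430 to 1.01), 3.36 of Adam18 (0 to 0.0615), 31.3 of Adam30 (0.281 to 0.949) and 11.8 of Adam32 (0.259 to 0.571). In nascent RNA it held 9.45 FPKM of Adam2 (0 to 0.132), 13.3 of Adam3 (0 to 0.0407), 5.96 of Adam5 (0 to 0.118), 1.71 of Adam18 (0 in the others), 8.59 of Adam30 (0.111 to 0.235) and 4.90 of Adam32 (0 to 0.136). Adam17 differed in the other direction, at 2.84 FPKM of nascent RNA against 8.40 to 10.1. The same library held 27.6 FPKM of summed spermatogonial markers in total RNA, against 98 to 142 in the other leptotene libraries, and 1999 FPKM of summed pachytene markers, against 97.3 to 129.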

How the results depend on the processing

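From spermatogonia to pachytene cells 8 members rose in total RNA under every alternative run except without leptotene replicate 1 (4). In nascent RNA 8 rose under every one except the stricter filter (7) and spike-in scaling (0). Across single libraries left out, the count of risen members was 4 to 8 in total and 8 to 8 in nascent RNA, and that of fallen members 2 to 6 and 3 to 6. For leptotene to pachytene these ranges were 0 to 9 risen and 0 to 4 fallen in total RNA and 1 to 9 and 1 to 3 in nascent RNA, and for spermatogonia to leptotene 0 risen in both, and 0 to 2 and 1 to 5 fallen. The low ends for pachytene minus leptotene came without leptotene replicate 1. The share of all genes called also moved with the run, as given above for some runs, such as those without leptotene replicate 1 or 2. For the other runs that share is not given here. These counts and those below therefore describe the runs and are not results about the family.

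Under the replicate block by animal, fallen members numbered 2 in total and 2 in nascent RNA for spermatogonia to pachytene (5 and 6 without the block), 1 and 3 for spermatogonia to leptotene (2 and 1) and 2 and 1 for leptotene to pachytene (3 and 3), while counts of risen members equalled those without it. Other settings also moved counts by over 1.5 times. Fallen members from spermatogonia to leptotene numbered 1 in total RNA with a pseudocount of 0.1, with median scaling or without a variance trend. In nascent RNA they numbered 2 with the stricter filter, 4 with libraries as replicates, 0 with median scaling, spike-in scaling or no variance trend, 6 in the 5S-corrected table and 5 in its libraries uncorrected, where 1 rose. Nascent counts were 0 risen and 0 fallen for both pachytene comparisons under spike-in scaling, and 0 fallen from leptotene to pachytene in the 5S-corrected table. Fallen members from spermatogonia to pachytene in nascent RNA numbered 3 with the stricter filter and 3 with median scaling. The interaction called 0 members under every alternative run.

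Signs that turned by more than 1 standard error, or for a called change, were these. From spermatogonia to leptotene, where none of them was called as deposited, they turned in total RNA without leptotene replicate 2 to -0.32 (Adam2), -0.07 (Adam3), -0.38 (Adam5), -0.2 (Adam32) and -0.31 (Adam30), the highest values without 1 library being 1.41, 1.58, 1.46, 0.92 and 1.25. With only the libraries that the 5S-corrected table holds they turned to -0.45 (Adam2), -0.43 (Adam5), 0.37 (Adam9) and -0.25 (Adam30). In nascent RNA they turned in the 5S-corrected table to -0.15 (Adam2), -0.67 (Adam9), -0.09 (Adam1b), -0.02 (Adam32) and -0.22 (Adam30), and for Adam17 to 0.44 without spermatogonia replicate 3 (lowest without 1 library -0.27). From leptotene to pachytene Adam17 turned to 0.01 in total RNA under spike-in scaling and to 0.26 in the 5S-corrected nascent table, and nascent Adam1a to -0.03 under spike-in scaling. Smaller turns without leptotene replicate 2, all uncalled and from spermatogonia to leptotene, were those of Adam1a (0.35 to -0.03), Adam18 (0.31 to -0.03), Adam9 (-0.26 to 0.1) and Adam10 (-0.12 to 0.02) in total RNA and of Adam17 (-0.04 to 0.2), Adam18 (0.22 to -0.02) and Adam30 (0.49 to -0.01) in nascent RNA. The causes were not tested. Scaling moved the median change of all genes from spermatogonia to pachytene from -0.14 to 0.37 (spike-ins) in total RNA and from -0.39 to 0.03 (median), -1.21 (spike-ins) and -0.14 (5S-corrected) in nascent RNA. A tolerance of 0.1 of a read put 39.1 to 42.6% of low total RNA values on whole reads. Implied depth limits members under 1 FPKM.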
